A study of Mus musculus with 23 samples.

Results

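Pilra, Pilrb1 and Pilrb2 encode the mouse paired immunoglobulin-like type 2 receptors, and their levels are described here in microglia of young and old mice with and without repopulation. The 3 genes were taken by symbol from 53090 genes. The family was chosen by the measured expected counts of Pilra, which were higher in every repopulated library than in every other library. All 3 passed the filter on low counts that kept 18720 genes for testing. The choice therefore rests on Pilra itself, and its values in the repopulation comparisons and in their interaction, like those of its relatives, are given as a description with no test.

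Microglia are the resident macrophages of the brain, and they depend on the receptor CSF1R for survival. Female C57BL/6 mice were grouped as young (Y, n = 7), young repopulated (Y-re, n = 3), old (O, n = 5) and old repopulated (O-re, n = 8). Depletion used the CSF1R inhibitor PLX5622 at 1200 ppm in AIN-76A chow, treatment controls ate that chow without the drug, and repopulation is the refilling of the brain by new cells after depletion. The labels name no transgene and give no ages, no length of diet and no interval between depletion and sampling. Magnetic isolation by CD11b with culture and RNA from sorted microglia are both described in the protocols. Replicates are not stated to be separate animals, so p-values measure only the spread between these libraries.

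Paired receptors share a ligand-binding region but signal in opposite directions. PILRα, the product of Pilra, carries inhibitory tyrosine motifs in its tail that recruit the phosphatases SHP-1 and SHP-2, and it restrains myeloid cells. PILRβ, which mice encode in Pilrb1 and in Pilrb2, has a short tail and signals through the adaptor DAP12, the product of Tyrobp, and the kinase Syk. Both bind sialylated O-glycans on proteins such as CD99, and both are expressed mainly in myeloid cells.

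The 3 genes lie side by side on the minus strand of chromosome 5 (GRCm38, GENCODE M21), and all are protein coding. Pilra (ENSMUSG00000046245.13) spans chr5:137821952-137836281, Pilrb1 (ENSMUSG00000066684.10) spans chr5:137852147-137858106 and Pilrb2 (ENSMUSG00000066682.11) spans chr5:137865827-137871815. Their start regions are near copies of each other. The RefSeq promoter table (GRCm38.p6) gave a block of 196 bases that all 3 genes hold. It is shown because the inhibitory and the activating genes have it in common near their starts, and regulatory activity was not tested. It lies at chr5:137836279-137836474 for Pilra, chr5:137858104-137858299 for Pilrb1 and chr5:137871813-137872008 for Pilrb2, minus strand, and its last 3 bases fall inside the annotated gene in each case. Capitals mark the 4 positions at which the 3 copies are not all alike, and the other 192 are shared.
Pilra: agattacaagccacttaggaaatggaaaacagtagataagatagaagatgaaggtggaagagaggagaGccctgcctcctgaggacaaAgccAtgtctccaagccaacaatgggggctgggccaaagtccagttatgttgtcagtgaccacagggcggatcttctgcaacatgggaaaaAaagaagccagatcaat
Pilrb1: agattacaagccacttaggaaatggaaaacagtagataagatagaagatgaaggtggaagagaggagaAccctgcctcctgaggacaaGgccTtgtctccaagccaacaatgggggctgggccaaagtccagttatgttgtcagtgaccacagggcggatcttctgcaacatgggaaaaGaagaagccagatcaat
Pilrb2: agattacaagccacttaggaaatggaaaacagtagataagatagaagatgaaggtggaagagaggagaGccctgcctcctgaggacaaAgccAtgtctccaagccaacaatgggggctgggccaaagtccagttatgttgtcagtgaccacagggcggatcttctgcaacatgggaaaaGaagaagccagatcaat
The Pilrb1 copy differs from that of Pilra at 4 positions and the Pilrb2 copy at 1. GGAAGT, a core of the kind bound by ETS factors such as PU.1, was searched on both strands of the 300-base RefSeq start windows. It stood once in each member's window, as in 23.8% of 32851 such windows, and the printed block holds no copy. GAGGAA, found in 28.3% of windows, stood once in the Pilra window and 0 times in those of Pilrb1 and Pilrb2. The longer GAGGAAGT, which contains both and is found in 3.2% of windows, was in none of the 3.

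The coding sequences are alike too, which bears on how reads of 50 nt can be assigned. Over the aligned bases, Pilra was 88.6% identical to Pilrb1 and 87.4% to Pilrb2, and the Pilrb genes were 93.0% identical to each other. The Pilra coding sequence has 906 bases against 672 and 675 in the Pilrb genes. The longest run without a mismatch between Pilra and Pilrb1 is printed because no read inside it can tell the inhibitory from the activating gene. It has 121 bases and begins at coding base 260 of both genes (GENCODE M21 transcripts).
Pilra and Pilrb1: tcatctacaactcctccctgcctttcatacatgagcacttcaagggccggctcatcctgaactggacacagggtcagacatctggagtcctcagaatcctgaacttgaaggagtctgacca
Of all distinct 50-base windows in Pilra transcripts, 93.5% occurred in no other member. The figure was 69.9% for Pilrb1 and 70.8% for Pilrb2, which shared 26.0% of their windows with each other. Pilra counts thus rest mostly on its own sequence, whereas the split between Pilrb1 and Pilrb2 is an estimate. Expected counts were not whole in 23, 21 and 22 of 23 libraries for Pilra, Pilrb1 and Pilrb2. The levels of the Pilrb genes are therefore given singly and summed.

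Libraries held 43.66 to 58.19 M expected counts, where M stands for mega. Sample titles number them from 1 to 24, and levels are also given within numbers 1 to 11 and 12 to 24, since no young repopulated library is in the lower run. The labels do not call these runs batches. Young replicate 3 stood apart, with 0 counts for Pilrb2 beside the highest young level of Pilrb1. Without it, the log2 fold change for old against young was 0.04 for Pilra, 2.99 for Pilrb1 (adjusted p = 0.111 by edgeR) and 2.15 for Pilrb2 (adjusted p = 0.0255), and for young repopulated against young it was 1.36, 1.19 and 1.38. All 12 microglia markers, among them P2ry12, Tmem119 and Sall1, were detected in every group.

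Pilra, the inhibitory receptor, was a well expressed gene. Its mean was 69.0 ± 30.2 TPM (transcripts per M, a level per length; SD, n = 23), rank 2153 of 53090. Pilrb1 and Pilrb2 were far lower, at 4.81 ± 4.89 and 5.25 ± 4.03 TPM. By the median of each group, the TPM of Pilra was 15.2 times the summed TPM of the Pilrb genes in young, 14.9 times in young repopulated, 3.21 times in old and 8.13 times in old repopulated libraries. In every one of the 23 libraries the inhibitory receptor was the more abundant, with ratios from 1.60 to 27.8.

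Pilra was at about the same level in young and old mice and higher in all repopulated libraries. In TMM-scaled counts per M of the library (CPM), young libraries ranged from 27.9 to 42.3 with a median of 30.5. The 5 old libraries were at 34.4, 39.9, 31.1, 28.1 and 33.3 CPM. Old and young libraries overlapped throughout, and no old library exceeded the highest young one. The 3 young repopulated libraries were at 67.0, 103 and 79.4 CPM. Old repopulated libraries ranged from 47.0 to 89.2 CPM with a median of 60.4. The 11 repopulated libraries thus lay above the 12 others, and the gap ran from 42.3 CPM in young replicate 2 to 47.0 CPM in old repopulated replicate 5. Only 5 of the 18720 genes, 0.0267%, had that complete separation upward. Since Pilra was chosen for it, nothing is read from that share. In bulk RNA, fewer cells of a type and less RNA per cell cannot be told apart.

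**Figure D1:**
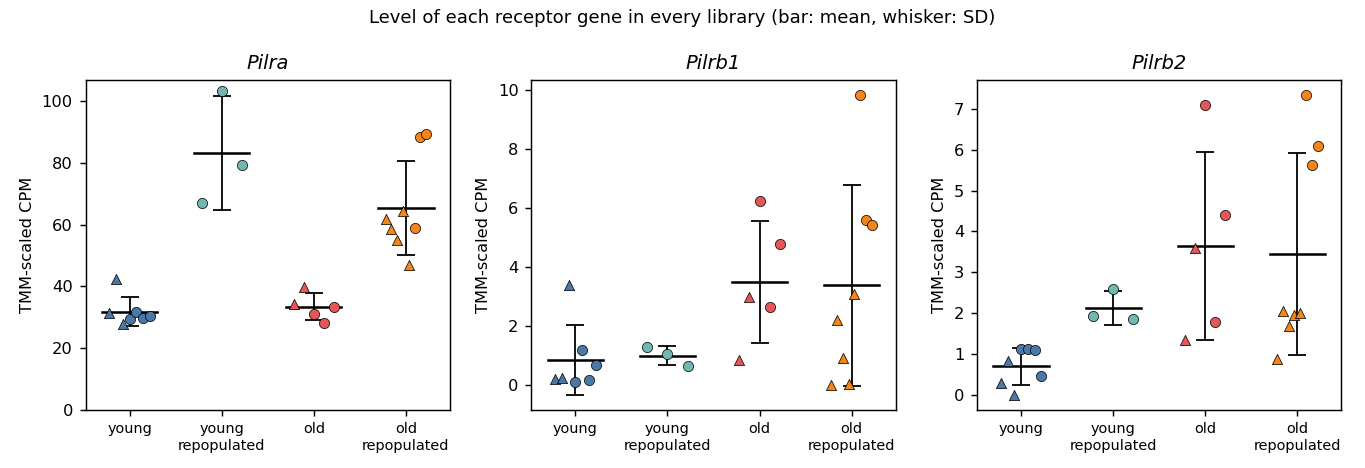
TMM-scaled CPM of Pilra, Pilrb1 and Pilrb2 in each of the 23 libraries, by group. Triangles are library numbers 1 to 11, circles numbers 12 to 24, the bar is the group mean and the whisker 1 SD. Pilra in repopulated libraries (47.0 to 103 CPM) lies above the others (27.9 to 42.3 CPM), while Pilrb1 and Pilrb2 reach their highest values in old and old repopulated libraries.

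In order of group mean, Pilra stood at 31.8 ± 4.80 CPM in young, 33.3 ± 4.37 in old, 65.4 ± 15.4 in old repopulated and 83.2 ± 18.4 in young repopulated libraries (SD). Neighbours in this order overlapped between young and old and between the repopulated groups. They did not overlap between old and old repopulated, a separation that followed from the choice of Pilra. It was found in 0.304% of genes, and nothing is read from that share. The log2 fold change was 1.39 ± 0.17 (SE) for young repopulated against young and 0.97 ± 0.15 for old repopulated against old. Within library numbers 12 to 24 the old difference was 1.36 on the log2 scale, and within numbers 1 to 11 it was 0.63. In CPM, the old repopulated libraries of the lower run averaged 57.4 ± 6.83 (n = 5) and those of the higher run 78.8 ± 17.3 (n = 3). The old controls averaged 37.1 ± 3.87 (n = 2) and 30.8 ± 2.60 (n = 3) in the same runs.

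Age gave no called difference in Pilra. For old against young its log2 fold change was 0.07 ± 0.15 (95% interval -0.25 to 0.38), with an adjusted p of 0.892 by edgeR's quasi-likelihood test with Benjamini-Hochberg adjustment. The test called 2.83% of all genes in this comparison. Among repopulated libraries Pilra was lower in old than in young mice by a log2 value of -0.35 ± 0.17 (adjusted p = 0.429 by edgeR), and 6 of 8 old repopulated libraries lay below the lowest young repopulated one. Of those 6, 5 were from numbers 1 to 11. Within numbers 12 to 24, the only run with both groups, the difference was -0.10 (adjusted p = 0.679 by edgeR), and without young repopulated replicate 2, the highest, it was -0.18. The interaction, which is the old repopulation difference minus the young one, was -0.41 ± 0.23. It was -0.13 within numbers 12 to 24 and -0.26 without young repopulated replicate 2, and it is given with no test because it uses the values that chose Pilra. In both of these comparisons edgeR called 0% of genes. At an unadjusted p under 0.05 it gave 2183 and 1542 genes, DESeq2 called 81 and 44, and limma voom called 3189 and 151.

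The activating receptors had another pattern, with their higher levels in old mice. Pilrb2 was at 0.29, 0.83, 0, 1.11, 1.11, 1.10 and 0.46 CPM in the 7 young libraries. The 5 old libraries were at 1.34, 3.597, 7.09, 1.77 and 4.41 CPM, so each was above the highest young one. Such separation of old above young was found in 1.43% of genes. The 0 of young replicate 3 allows up to 0.0661 CPM (3 counts, counting error only), and the same library had the highest young Pilrb1 value. Pilrb2 rose with age by a log2 fold change of 2.37 ± 0.64 (95% interval 1.02 to 3.72; adjusted p = 0.0463 by edgeR), where 2.60% of genes were called higher.

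The Pilrb2 call was near its threshold. Without old replicate 3, which had the highest old value, the log2 fold change was 1.98 and the adjusted p by edgeR 0.233. The call was also lost without old replicates 2 or 5, any young replicate except 3, any young repopulated replicate, or old repopulated replicates 3, 5 or 7, so that it held in 8 of 23 fits that each left out 1 library. The direction held in all 23, with values from 1.98 to 2.61. DESeq2 called it with an adjusted p of 0.00328 and 5.19% of all genes, and limma voom with 0.0137 and 12.6% of all genes. With the library-number run as a term, edgeR's adjusted p was 0.0128, in a fit that called 3.30% of genes.

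Pilrb1 varied more within groups. Young libraries lay between 0.11 and 3.40 CPM with a median of 0.24, and only replicates 3 and 5 exceeded 1 CPM. The old libraries were at 0.86, 3.00, 6.25, 2.66 and 4.79 CPM. The highest young library lay within the old range, and 2 of 5 old libraries exceeded it. The log2 fold change for old against young was 2.02 ± 0.98 (adjusted p = 0.327 by edgeR). Within library numbers 12 to 24, which leave out young replicate 3, it was 3.05 with an adjusted p of 0.00598 by edgeR, in a fit that called 15.7% of genes. Within numbers 1 to 11 it was 0.57 ± 1.80 with an adjusted p of 1, where edgeR called 1 of 18746 genes.

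Summing the Pilrb genes, an alternative chosen after seeing the data, removes the split between them. The sum was 1.56 ± 0.972 CPM in young (n = 7) and 7.16 ± 4.32 CPM in old libraries (n = 5). It rose with age by a log2 fold change of 2.19 ± 0.58 (adjusted p = 0.0405 by edgeR), and 4 of 5 old libraries exceeded the highest young one. The call held in 12 of 23 fits that left out 1 library. It was lost without young replicates 1, 2, 4, 5, 6 or 7, young repopulated replicates 1 or 3, or old replicates 2, 3 or 5, and the adjusted p by edgeR then reached 0.206 at most, without old replicate 3.

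Over all libraries, repopulation came with no common shift of the activating receptors. Old repopulated libraries held 3.39 ± 3.41 CPM of Pilrb1 and 3.45 ± 2.48 CPM of Pilrb2 (n = 8). Pilrb1 ranged there from 0 to 9.85 CPM, the widest range of any group, and the 0 in replicate 1 allows up to 0.0617 CPM. Against old libraries the log2 fold changes were -0.05 ± 0.94 for Pilrb1 and -0.08 ± 0.61 for Pilrb2, beside 0.97 for Pilra. Within library numbers 12 to 24 both turned positive, at 0.61 and 0.53, and both were positive there in young mice too. The lower run of old repopulated libraries had a summed Pilrb level of 2.96 ± 1.71 CPM (n = 5) and the higher run one of 13.3 ± 3.36 CPM (n = 3).

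In young mice Pilrb2 was higher in all 3 repopulated libraries, at 1.92, 2.60 and 1.85 CPM, than in any young one. Complete separation of this kind was found in 5.97% of genes. The log2 fold change was 1.60 ± 0.72, and with the library-number run as a term it was 1.12. Pilrb1 was at 1.28, 1.07 and 0.66 CPM in these libraries, inside the young range, and its log2 fold change was 0.22 ± 1.15.

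Between the repopulated groups, Pilrb1 was 1.75 ± 1.25 and Pilrb2 0.70 ± 0.76 higher in old mice on the log2 scale, with adjusted p-values of 0.56 and 0.725 by edgeR. Within library numbers 12 to 24, where 3 libraries stood against 3, these were 2.77 and 1.56 with adjusted p-values of 0.00713 and 0.0143 in a fit that called 36.3% of genes. For the interaction, values were -0.27 ± 1.49 for Pilrb1 and -1.67 ± 0.95 for Pilrb2, and within numbers 12 to 24 they were -0.28 and -0.67. Over the 23 libraries, log2 CPM of Pilra had a Pearson r of 0.07 with Pilrb1 and 0.47 with Pilrb2. The value for the Pilrb genes with each other was 0.40, and all libraries share these group differences.

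The balance of the pair can be read per length, as the share of Pilrb1 and Pilrb2 in the summed TPM of the 3 genes. This activating share was 7.42% ± 2.74 in young libraries (SD, n = 7), with a lowest value of 4.50%, a median of 6.19% and a highest of 12.1%. The 5 old libraries had 10.6%, 23.7%, 38.5%, 19.9% and 30.8%. Apart from old replicate 1, all old libraries exceeded the highest young one. The means differed by 17.3 percentage points (exact permutation test, two-sided, p = 0.00505, adjusted over 2 tests 0.0101), and the difference was called in each of the 12 repeats without 1 library, at 13.8 to 20.8 points. It was 21.8 points within library numbers 12 to 24, where the exact two-sided p of 0.0571 is the smallest the design allows. It was 10.49 points within numbers 1 to 11, where the smallest exact p, 0.2, was also reached. The 5 old libraries, in the order given, had monocyte marker sums of 160.2, 898, 2456, 346 and 1338 CPM. Young libraries had 37.6 to 293 CPM, and the part of cell composition in the share was not tested.

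**Figure D2:**
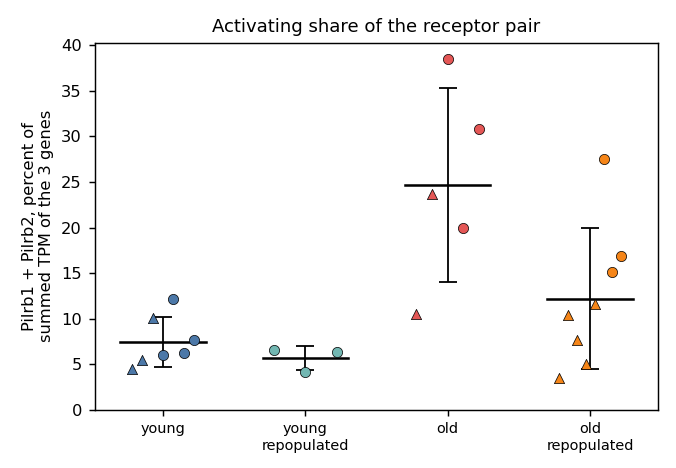
Share of Pilrb1 and Pilrb2 in the summed TPM of the 3 genes, in percent, for each library by group. Triangles are library numbers 1 to 11, circles numbers 12 to 24, the bar is the group mean and the whisker 1 SD. Old libraries reach 38.5%, young libraries no more than 12.1%.

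The share had lower means in the repopulated groups than in their controls, and the higher Pilra level enters it. It was 5.66% ± 1.31 in young repopulated libraries (n = 3), with values of 6.51%, 4.15% and 6.30%. Old repopulated libraries had 12.2% ± 7.72 (n = 8), from 3.47% to 27.5% with a median of 10.98%. Of these, 4 of 8 lay below the lowest old library and none above the highest. Old and young repopulated libraries differed by 6.55 percentage points (exact permutation test, two-sided, p = 0.145). The means within numbers 12 to 24 were 19.8% and 5.66%, a difference of 14.2 points, at the smallest exact two-sided p that 3 against 3 allows, 0.1. Deposited effective lengths, which change when reads move between isoforms, gave no called difference in 12 exact tests over the 3 genes and 4 comparisons. The smallest p was for Pilrb1 in old repopulated against old libraries, 118 bases longer (exact two-sided p = 0.0451, adjusted 0.541).

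Marker sums of microglia and of other cell types differed between groups and libraries. The summed CPM of the 12 microglia markers ran from 26611 to 32720 in young, 23698 to 27492 in young repopulated, 10580 to 27250 in old and 9990.8 to 30949 in old repopulated libraries. The 10 monocyte markers, among them Ccr2, Ly6c2 and Plac8, summed to 37.6 to 293 CPM, 129.6 to 407 CPM, 160.2 to 2456 CPM and 112 to 3138 CPM in the same order. The 9 border macrophage markers, such as Mrc1 and Pf4, summed to 59.4 to 229 CPM, 299 to 417 CPM, 191 to 903 CPM and 73.2 to 1261 CPM. Their members differed in direction. The repopulation log2 differences in young and old mice were 1.30 and 1.05 for Mrc1 and 1.17 and 1.17 for Pf4, but -1.29 and -1.47 for Cd163, -3.71 and -3.73 for Cd209f and 1.53 and -0.29 for Lyve1. Of the 9, edgeR called Ms4a7 alone in these comparisons, for young mice (2.47, adjusted p = 0.0394). Neutrophil markers (10 genes) reached 87.8, 161.6, 224 and 369 CPM, and dendritic cell markers (7 genes) 17.02, 39.7, 164 and 117 CPM. Lymphocyte markers (9 genes) stayed at or below 18.9 CPM and neural and glial markers (10 genes) at or below 83.2 CPM. No marker was at 0 in all libraries.

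The 4 libraries with the highest summed Pilrb level were also the 4 with the lowest microglia marker sum. They were old repopulated replicates 6, 8 and 7 and old replicate 3, at 17.2, 11.5, 11.2 and 13.3 CPM of summed Pilrb. Their monocyte marker sums were 3138, 1341, 1011 and 2456 CPM. Old repopulated replicate 1 was at the other end, with the highest microglia sum of the repopulated libraries, 112 CPM of monocyte markers and the lowest old repopulated Pilrb level, 0.878 CPM. Old replicate 1, with 160.2 CPM of monocyte markers, had 2.21 CPM of Pilrb, within the young range. The part of these cells in the Pilrb difference was not tested.

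For Pilra the order was another one within the old group, while in the old repopulated group 2 of the 3 libraries with the lowest marker sums had the highest Pilra, 89.2 CPM in replicate 8 and 88.5 CPM in replicate 7. The third, replicate 6, had 58.9 CPM. Old replicate 3, with the lowest microglia marker sum of the old group, had 31.1 CPM of Pilra, within the young range of 27.9 to 42.3. Old repopulated replicate 1, whose marker sums lay near those of young libraries, had 61.9 CPM, above every young and old library. Old repopulated replicate 4, with 154.9 CPM of monocyte markers, had 64.5 CPM.

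**Figure D3:**
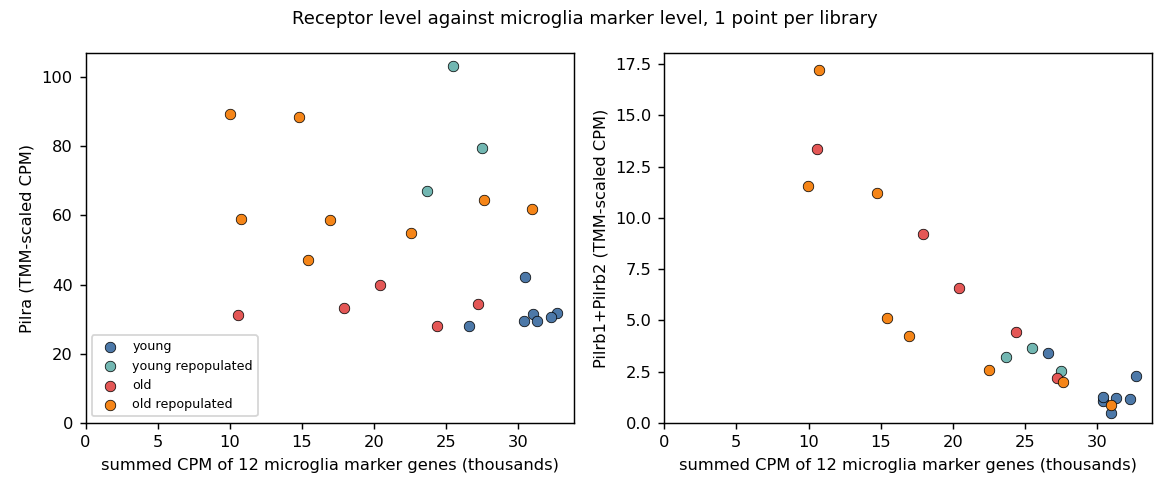
Level of Pilra and of Pilrb1 plus Pilrb2 (TMM-scaled CPM) against the summed CPM of 12 microglia marker genes (axis in kilo-CPM), 1 point per library coloured by group. The highest Pilrb sums, 11.2 to 17.2 CPM, stand at the lowest marker sums. Repopulated libraries have more Pilra, and their marker sums run from 9990.8 to 30949 CPM.

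Over all libraries the median of the chromosomal neighbours was near that of all genes. Of 34 genes in the tables within 250 kb of Pilra, 19 were tested. Their median log2 difference was 0.03 for young repopulated against young and -0.07 for old repopulated against old, beside -0.04 and 0.00 over all genes. None was called in either comparison by edgeR, with 1 of 19 at an unadjusted p under 0.05 in each. DESeq2 called 0 in both, and limma voom called 2 and 0. The values differed within numbers 12 to 24, with 18 neighbours tested. For old repopulated against old libraries their median was -0.43 beside -0.02 for all genes, and 3 were called lower, Gm20605, Mepce and Zcwpw1 (12.7% of all genes were called). Between the repopulated groups it was -0.71 beside 0.00, with 7 called lower (36.3% of all genes were called). For young repopulated against young it was 0.16, with 1 called (9.30% of all genes), and for the interaction 2 were called lower (8.87%). For old against young 1 of 19 was called over all libraries, beside 2.83% of all genes. This was Agfg2, which rose from 15.3 ± 1.37 to 24.1 ± 9.20 CPM (log2 fold change 0.65 ± 0.18, adjusted p = 0.0493 by edgeR). That call was lost without any 1 of the young replicates, young repopulated replicates 1 or 3, old replicates 2, 3 or 5, or old repopulated replicates 2, 3, 6, 7 or 8.

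Zcwpw1 overlaps the end of Pilra on the opposite strand, so reads of both could be mixed if strand was not used in counting. Its means were lower in the repopulated groups than in their controls, at 26.0 ± 6.34 CPM in young, 15.6 CPM in young repopulated, 19.3 ± 6.01 CPM in old and 12.3 ± 5.99 CPM in old repopulated libraries. Its log2 differences were -0.73 for young (adjusted p = 0.342 by edgeR) and -0.66 for old mice (adjusted p = 0.392). Limma voom called it in the young comparison, and edgeR within numbers 12 to 24 called it lower in the old one. The antisense genes Gm36551 and Gm43495, which overlap Pilrb1 and Pilrb2, were at 0 in 21 and 18 of 23 libraries.

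**Figure D4:**
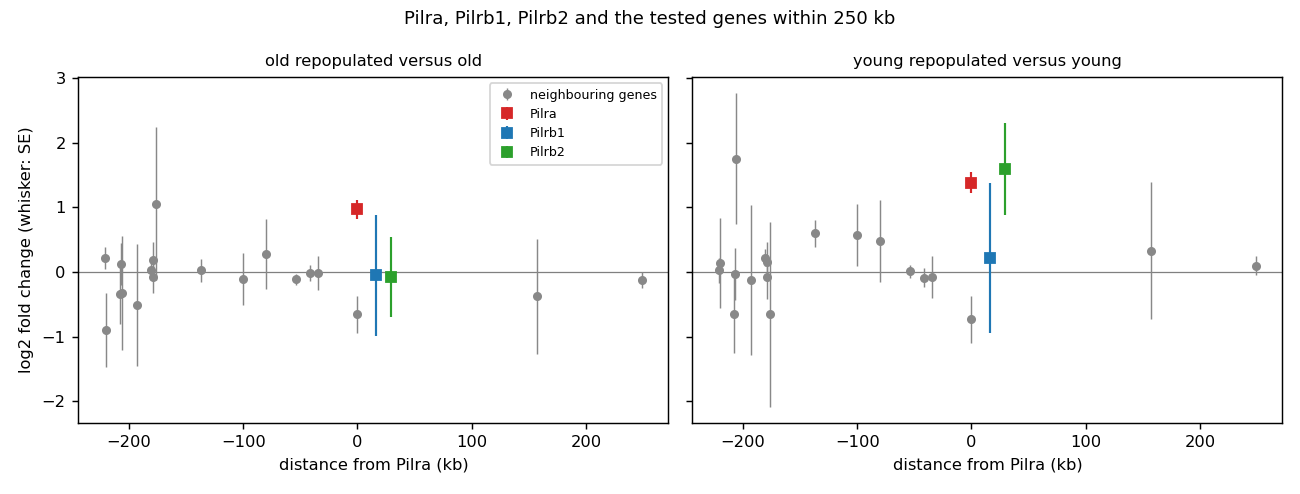
Log2 fold change (whisker: SE) of Pilra, Pilrb1, Pilrb2 and the 19 tested genes within 250 kb, against the distance from Pilra in kb, for each repopulated group against its control. Pilra lies at 1.39 and 0.97 in the repopulation comparisons, while the median of the neighbours lies at 0.03 and -0.07.

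Of the ligands of the receptors, 0 of 4 tested ligand genes were called over all libraries in any comparison by edgeR. Colec12, a scavenger receptor collectin, was at 6.64 ± 4.36 CPM in old and 26.5 ± 15.3 CPM in old repopulated libraries (log2 fold change 2.00, adjusted p = 0.0740 by edgeR). DESeq2 and limma voom called it in that comparison and no other ligand in any. Within numbers 12 to 24, where 3 ligands were tested, edgeR called Colec12 higher in that comparison and in the interaction. It called Colec12 and Pianp lower in old than in young, and Cd99l2 lower in old than in young repopulated libraries. Of all genes, 12.7%, 8.87%, 15.7% and 36.3% were called in the same order. Pianp was between 9.93 and 12.8 CPM in all groups, Cd99l2 between 19.4 and 21.5 CPM, and Npdc1 at most 0.318 CPM. At an unadjusted p under 0.05, 1 of 4 ligands stood out for old against young, 1 for old repopulated against old and 0 in the other comparisons.

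Of 9 tested genes that build or sialylate O-glycans, the structures that the receptors bind, 1 was called with age, beside 2.83% of all genes. St3gal4, a sialyltransferase, rose from 13.8 ± 2.02 CPM in young to 27.3 ± 12.02 CPM in old libraries (log2 fold change 0.98 ± 0.23, adjusted p = 0.0223 by edgeR), and this call was lost without young replicate 6 or without old replicates 3 or 5. The median log2 fold change of the 9 genes was -0.02. Galnt1 and Gcnt1, which start and branch the glycan, were at 220.1 and 203 CPM in young and 227 and 182 CPM in old libraries. None of the 9 was called over all libraries in the other comparisons by edgeR or DESeq2, with at most 1 at an unadjusted p under 0.05 by edgeR, and limma voom called up to 3. Within numbers 12 to 24 edgeR called 5 of 9 between the repopulated groups, with 3 higher and 2 lower in old mice. It also called St3gal2 lower in old repopulated than in old libraries, and St3gal1 and St3gal4 higher in old than in young. Of all genes, 36.3%, 12.7% and 15.7% were called in the same order. With the library-number run as a term, 5 of 9 were at an unadjusted p under 0.05 between the repopulated groups and 0 were called.

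The signalling partners were abundant. Tyrobp, the adaptor of PILRβ, was at 794 ± 98.5 CPM in young, 957 CPM in young repopulated, 686 ± 46.6 CPM in old and 816 ± 113 CPM in old repopulated libraries. Syk, the kinase that DAP12 recruits, was at 238 to 275 CPM in all groups. None of the 14 activating signalling genes was called over all libraries by edgeR in any comparison. At an unadjusted p under 0.05 there were 3 for old against young, 1 in each comparison of a repopulated group, and 0 for the interaction. Fgr, a Src-family kinase, was the only one DESeq2 called, for old against young, where its levels were 24.8 ± 4.79 CPM in young and 70.8 ± 47.6 CPM in old libraries (log2 fold change 1.51, adjusted p = 0.055 by edgeR). Limma voom called up to 3 in a comparison. With the library-number run as a term edgeR called Fgr for old against young and Src between the repopulated groups. Within numbers 12 to 24 it called 4 of 14 for old against young, 3 higher and 1 lower (15.7% of all genes). Between the repopulated groups it called 7 of 14 there, 2 higher and 5 lower (36.3% of all genes). It called 2 lower in the interaction (8.87%). For old and young repopulated libraries against their controls it called 2 and 1 (12.7% and 9.30%).

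Ptpn6, which encodes SHP-1, was at 348 to 375 CPM and Ptpn11, which encodes SHP-2, at 74.4 to 87.8 CPM in the 4 groups. Inpp5d, the lipid phosphatase SHIP1, was at 957 ± 65.2 CPM in young and 848 ± 60.2 CPM in old libraries. None of the 8 inhibitory signalling genes was called over all libraries by edgeR or DESeq2. At an unadjusted p under 0.05 edgeR gave 5 of 8 for old against young repopulated, 0 for young repopulated against young and 1 in each of the others, and limma voom called up to 4. Between the repopulated groups edgeR called Dok2 and Pag1, adaptors of inhibitory signalling, with the library-number run as a term (4.52% of all genes). Within numbers 12 to 24 it called 5 of 8 there, 2 higher and 3 lower (36.3% of all genes). That run also gave Dok2 and Dok3 for old against young (15.7%) and 2 in the interaction (8.87%). For old and young repopulated libraries against their controls it gave 2 and 1 (12.7% and 9.30%). The median log2 fold changes of this list were 0.10 and -0.01 in the repopulation comparisons of young and old mice.

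Several other myeloid receptors, listed here from paired and related families, also rose with age. Of 32 tested, 11 rose and 0 fell in old against young libraries by edgeR, where 2.60% of all genes were called higher, and the median log2 fold change was 0.61 beside -0.01 for all genes, with 27 of 32 above 0. The 11 were Pirb, Pira2, Sirpb1b, Sirpb1c, Cd200r4, Cd300lb, Cd300lf, Trem3, Treml4, Clec7a and Clec12a. They hold activating members of pairs, such as Pira2 (1.48 ± 1.01 to 20.4 ± 18.2 CPM, log2 fold change 3.78 ± 0.91) and Sirpb1b (0.673 ± 0.499 to 16.02 ± 13.7 CPM, 4.57 ± 0.77). They also hold the inhibitory Pirb (37.6 ± 10.2 to 139 ± 103 CPM, 1.89 ± 0.41). Without old replicate 3 the count fell to 3, without old replicate 5 to 6, and without old replicate 1 it was 17. Within numbers 12 to 24 edgeR called 17 higher and 1 lower, beside 15.7% of all genes called. Within numbers 1 to 11 it called none, with 4 of 32 at an unadjusted p under 0.05. The monocyte marker sums of 160.2 to 2456 CPM in old and 37.6 to 293 CPM in young libraries stand beside this count, and their part was not tested.

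Trem2, Sirpa and Fcgr3, receptors of this list that are high in microglia, were not among those called over all libraries by edgeR. Trem2 was at 842 ± 45.8 CPM in young and 675 ± 176 CPM in old libraries (adjusted p = 0.588 by edgeR). Sirpa was at 1918 ± 122 and 1530 ± 277 CPM (adjusted p = 0.326 by edgeR), and Fcgr3 at 909 ± 86.0 and 738 ± 132 CPM (adjusted p = 0.485 by edgeR). Sirpa was called lower in old libraries by limma voom and by edgeR within numbers 12 to 24. A p above the threshold does not show that levels were alike.

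In young repopulated against young libraries, 4 of 32 rose and 0 fell by edgeR (1.34% of all genes were called there). Clec7a, a receptor for β-glucan, rose from 245 ± 33.2 to 619 ± 25.9 CPM (log2 fold change 1.34 ± 0.16), and the others were Clec12a, Cd200r4 and Sirpb1b. The count was 1 without young repopulated replicate 1, 2 without young repopulated replicates 2 or 3 or young replicates 2, 4, 5 or 7, and 7 without young replicate 3. In old repopulated against old libraries edgeR called 0 of 32 (0.278% of all genes), with 5 at an unadjusted p under 0.05, and DESeq2 called 1 and limma voom 2. Between the repopulated groups edgeR called 0 of 32, with 6 at an unadjusted p under 0.05, and DESeq2 called 0 and limma voom 11. For the interaction edgeR called 0 with 7 at an unadjusted p under 0.05, and both other tools called Clec7a. EdgeR within numbers 12 to 24 called 10 of 32 for young and 5 for old repopulated libraries against their controls. The counts were 19 between the repopulated groups and 6 in the interaction. Of all genes, 9.30%, 12.7%, 36.3% and 8.87% were called in the same order. With the library-number run as a term edgeR called 5 between the repopulated groups (4.52% of all genes).

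Genes with a pattern most like Pilra were ranked by Pearson correlation of log2 CPM over the 23 libraries, among 9644 named genes with a mean of at least 5 CPM. The 8 highest were Ptpn9, Sc5d, Pxdc1, St8sia1, Ccnd1, Rnf141, Clec7a and Axl, with r from 0.85 to 0.80. All libraries share the group differences, so these values describe the group pattern. Axl, a receptor tyrosine kinase, was at 281 ± 35.8 CPM in young and 944 ± 160.1 CPM in young repopulated libraries, and at 463 ± 84.0 CPM in old and 760 ± 214 CPM in old repopulated libraries. Ptpn9, a tyrosine phosphatase, had a narrower range, from 31.8 ± 1.31 CPM in young to 41.4 ± 2.67 CPM in old repopulated libraries. It was 1 of the other 4 genes with complete separation.

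The 5 genes most opposed to Pilra were Mdfi, Myo18b, Nlgn2, Efnb2 and Npl, with r from -0.88 to -0.83. Myo18b was at 42.0 ± 12.1 CPM in young and 29.0 ± 13.4 CPM in old libraries, and at 1.42 and 2.24 CPM in the repopulated groups. Within groups, on residuals from the group means, another 8 genes led, from Ube3c (r = 0.71) to Galnt3 (r = 0.63). With Spearman's correlation 4 of the 8 genes stayed among the highest, and without young replicate 3 it was 6.

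Pilrb1 had other companions. The 5 highest were Zfp91, Cbr2, Hivep1, Glipr2 and Lrrfip2, with r from 0.88 to 0.86. Cbr2 is a marker of border macrophages, and its level was 8.73 ± 6.92 CPM in young, 17.02 CPM in young repopulated, 21.8 ± 15.8 CPM in old and 32.1 ± 26.9 CPM in old repopulated libraries. Within groups the highest was F13a1, also listed here as a border macrophage marker, with r = 0.90. F13a1 rose with age, from 27.8 ± 22.9 CPM in young to 178 ± 153 CPM in old libraries (adjusted p = 0.035 by edgeR). Members of that list differed in direction on repopulation, and correlations of its other members with Pilrb1 are not given here. The lowest were Tspan14, Mtdh and Lpcat1, with r from -0.86 to -0.85.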

How the data were processed

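Messenger RNA was measured in 23 libraries of mouse microglia. Single reads of 50 nt came from stranded poly(A) libraries, per the labels' protocols. The submitters' processing notes name FastQC 0.11.5, STAR, RSEM, limma and GRCm38. Per the file headers, the authors deposited 1 RSEM gene table per library, with expected counts, TPM and effective lengths for 53090 genes. The annotation release, and whether counting used strand, are not given in the sources used here. Reads that fit several genes are shared out by RSEM, which makes the Pilrb1 and Pilrb2 values estimates, and 87.26% of all expected counts were whole (tolerance 1e-06).

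The expected counts were rounded, filtered with filterByExpr (18720 genes), scaled by TMM and fitted in edgeR 4.0.16 (R 4.3.3) with 1 coefficient per group over all 23 libraries. In the quasi-likelihood test a gene was called where p, adjusted by Benjamini-Hochberg over all tested genes, was under 0.05, and the SE is the log2 fold change divided by the square root of its F value. Intervals (95%) used 19 residual degrees of freedom. The 5 comparisons were old versus young, the repopulated groups with each other, each repopulated group with its control, and the interaction. Shares of the deposited TPM, not weighted by counts, and the effective lengths were compared by exact two-sided permutation tests (scipy 1.17.1). The summed Pilrb counts behind the shares ran from 23.99 in young replicate 1 to 748.6 in old repopulated replicate 6. Log2 CPM values used a prior count of 2. The script was tested on simulated data.

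The members and lists were chosen with earlier results of these data known. Named were each member, list genes called or with a mean of at least 50 CPM or needed to describe a list, and the genes most and least correlated with Pilra (8 and 5) and Pilrb1 (5 and 3). Where 2 table rows had the same symbol, the row with more counts was used. Cd99 was not matched by symbol and is not analysed here. Coordinates and transcripts come from GENCODE M21 and start regions from RefSeq, both GRCm38. Alternatives were RLE and upper-quartile factors, a filter at a mean of 5 CPM or none, limma 3.58.1 (voom with sample quality weights) and DESeq2 1.42.0. Others were only the groups compared, the library-number run as a term with 2 levels, and fits within runs. The rest were an offset from effective lengths, unrounded counts, robust dispersion, summed members and each library left out.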

Additional observations from a re-analysis of the deposited data

Results flagged for a closer look

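Dixon's test was applied to 21 groups of values of the members, and 3 had a library that stood apart, where chance gives about 1 in 20. In young libraries, Pilra of replicate 2 was 42.32 CPM, the highest, beside 27.9 to 31.7 CPM in the others. Pilrb1 of young replicate 3 was 3.405 CPM beside at most 1.196 CPM in the others, and its Pilrb2 count was 0. The deposited effective length of Pilrb1 in young replicate 2 was 1758 bases, beside 395 to 971 bases in the others, at an expected count of 11.6.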

How the results depend on the processing

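The log2 fold change of Pilra kept its direction in each comparison under every alternative run; for old repopulated against old libraries it was 1.36 within library numbers 12 to 24 and 0.63 within numbers 1 to 11, and 0.90 to 1.05 with 1 library left out. For old against young, the Pilrb2 log2 fold change missed the threshold with upper-quartile factors (2.30), no filter (2.36), only the groups compared (2.37), library numbers 1 to 11 (2.71) and an offset from effective lengths (2.18), and leaving out 1 library gave 1.98 to 2.61 (adjusted p 0.0238 to 0.233 by edgeR). The summed Pilrb genes gave 1.4, not called, within numbers 1 to 11 and 1.84 to 2.51 with 1 library left out. Within library numbers 12 to 24, Pilrb1 for old against young was 3.05, and between the repopulated groups Pilrb1 was 2.77, Pilrb2 1.56 and their sum 2.07, all called there and not over all libraries (adjusted p 0.00169 for the sum). Within numbers 1 to 11, Pilrb1 for old against young was 0.57 ± 1.80. The cause of these differences between runs was not tested. The activating share differed between old and young libraries by 21.8 percentage points within numbers 12 to 24 and 10.49 within numbers 1 to 11, in designs too small to pass.

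Signs turned only where values were small beside their SE. For old repopulated against old libraries, Pilrb1 was 0.61, Pilrb2 0.53 and their sum 0.57 within numbers 12 to 24, and Pilrb2 was 0.10 with voom; with 1 library left out they ran from -0.51 to 0.26, -0.33 to 0.31 and -0.42 to 0.29. For young repopulated against young libraries, Pilrb1 was -0.43 with the library-number run as a term and -0.12 with the offset. It was 1.10 with voom, 0.89 within numbers 12 to 24, and 0.0030 to 1.19 with 1 library left out. Pilrb2 was 1.29, 1.12 and 1.197 with voom, the term and numbers 12 to 24, and 1.38 to 1.76 with 1 library left out; the sum was 0.42 with the term and 0.85 to 1.32 with 1 library left out. The Pilrb1 interaction was 0.39 with the term and -1.24 to 0.043 with 1 library left out. Differences in effective length turned sign with 1 library left out for Pilra, young repopulated against young (-72.3 to 41.5 bases). They did so for Pilrb1, old against young (-35.8 to 191.4) and between the repopulated groups (-177.7 to 77.2), and for Pilrb2, old repopulated against old (-38.3 to 78.2) and young repopulated against young (-26.5 to 77.9).

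Over all lists, 13 genes were called for old against young, 0 between the repopulated groups, 0 for the interaction, 0 for old and 4 for young repopulated libraries against their controls. Voom called 25, 23, 1, 3 and 18, and with a term for the library-number run edgeR called 9 between the repopulated groups. No paired analysis was possible because library numbers do not repeat across groups and the group labels carry no replicate number. Depth limits the Pilrb genes, with 4.59 to 151 expected counts for Pilrb1 and 0 to 51.5 for Pilrb2 in young libraries.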
